A study of Mus musculus with 65 samples.

Results

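HSD2 neurons are cells of the nucleus of the solitary tract (NTS) that make 11-beta-hydroxysteroid dehydrogenase type 2, and 56 of the 65 single HSD2 neurons of the series are described here gene by gene. They were chosen by a measured value: a cell was kept when its CPM (reads scaled by a total for each cell that the sources used here do not give), summed over all lines of the deposited table, was at most 1200000. The kept cell nearest that limit summed to 1147330 and the next below it to 1058070. The first cell beyond it summed to 1393470. All 9 cells left out came from the low-sodium group, so the 56 cells are 33 of 33 cells on standard chow and 23 of 32 on low sodium. Every cell came from male mice of mixed strain that carried Hsd11b2-Cre and Ai9(lox)tdTomato, in which Cre recombinase made under Hsd11b2 control permanently switches on a red fluorescent protein. Age is not given in the sources used here. Red cells were picked by hand after papain digestion, frozen singly, and made into polyA RNA libraries by Smart-Seq2, which copies whole transcripts, and Nextera XT. The extraction protocol names Arc-ME as the digested tissue and the tissue label names the NTS. The labels tie no cell to an animal, so the cells are not replicates of a diet, no test was made, and every SD is the spread between cells (n = 56 unless given).

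The enzyme that gives these neurons their name inactivates glucocorticoids inside the cell and so leaves the mineralocorticoid receptor free to respond to aldosterone, the adrenal hormone released when the body is short of sodium. HSD2 neurons are known for their part in the appetite for salt. Neurons as a class need transcripts for energy supply, cytoskeleton and transmitter release. Other transcripts can differ from cell to cell within a neuron type, such as those of immediate early genes, which are switched on soon after a stimulus, and of neuropeptides.

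The 5 transcripts used to mark these neurons were broadly present, and the reporter used to pick the cells itself depends on Hsd11b2. Levels are given as log2(CPM + 1), with the lowest, median and highest cell. Hsd11b2 was above 0 in 56 of 56 cells (6.42, 8.80 and 10.26). Ddc, the aromatic amino acid decarboxylase, was above 0 in 56 cells (5.06, 9.06 and 10.45), and Slc17a6, the vesicular glutamate transporter VGLUT2, in 56 cells (6.37, 8.91 and 10.29). Agtr1a, an angiotensin II receptor, was at 0 in 2 cells (highest 9.13, median 7.47). Nr3c2, the mineralocorticoid receptor, was at 0 in 3 cells (highest 7.89, median 6.13). Their summed CPM ran from 440.5 to 3114, with a median of 1846. Among the markers, the Spearman rho over the 56 cells was 0.19 between Hsd11b2 and Nr3c2, 0.13 between Hsd11b2 and Agtr1a and 0.14 between Nr3c2 and Agtr1a. For Hsd11b2 and Nr3c2 it was 0.42 within chow cells, -0.04 within low-sodium cells and 0.30 with the rank of reads removed.

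Cells differed widely in depth. Reads in the listed genes numbered 50078 to 5319462 per cell (median 725056), recovered from the step between the CPM values of a cell. A single read was worth 0.160 to 16.1 CPM, which sets the lowest level that each cell can show. Genes above 0 numbered 4700 to 11467 per cell (median 8249). At least 3 of 13 pan-neuronal markers exceeded 10 CPM in 56 of 56 cells. Markers of other cells were present too: at least 3 of 13 astrocyte markers exceeded 10 CPM in 26 cells and at least 3 of 6 oligodendrocyte markers in 22 cells, with 31 cells meeting either limit. Summed CPM of the astrocyte markers ran from 178.9 to 5343 (median 603.2) and of the oligodendrocyte markers from 0 to 7616 (median 228.5). Several of these were found almost everywhere, such as Aldoc (56 cells), Slc4a4 (53 cells) and Cnp (52 cells), whereas Aqp4 was at 0 in 38 cells and Mag in 46. Restricted to the 10 astrocyte and 3 oligodendrocyte markers found in under 28 cells, the limit of 3 markers was met in 14 and 2 cells. For oligodendrocytes this limit then asks for all 3 markers, so it is stricter than before. No marker of the restricted lists exceeded 10 CPM in 33 cells for astrocytes and in 35 for oligodendrocytes, and the remaining cells had at least 1. At least 3 of 7 endothelial and mural markers exceeded 10 CPM in 7 cells (summed CPM 0 to 3212, median 15.1). For ependymal and meningeal markers, at least 3 of 5 did so in 7 cells (0 to 2543, median 66.1). Hbb-bs, a red blood cell marker, was above 0 in 40 cells, and the 2 such markers listed summed to at most 270.4 CPM. None of 12 microglia markers is listed in the table, which holds only genes above 0 in at least 5 of the 65 cells.

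The table was not dominated by a few transcripts. The gene with the highest mean CPM held 0.710% of all CPM, the highest 10 held 3.41%, the highest 100 held 12.8% and the highest 1000 held 43.6%. By mean CPM, which grows with transcript length, Rn45s, the precursor of ribosomal RNA, stood first (6445 ± 6406 CPM). The gene ranked 2, named only by a sequence record, is left out here. Next came the long noncoding RNA Meg3 (3729 ± 3061 CPM) and X57780 (3497 CPM), which is also a sequence-record name but was not left out. Map1b, which encodes a microtubule-associated protein of axons, followed at 2517 ± 798 CPM, and Malat1, a nuclear noncoding RNA, at 2116 ± 1796 CPM. Per cell, the share of CPM in the 100 genes with the highest mean ran from 5.56% to 25.5%.

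That share followed depth closely. Its Spearman rho with reads was -0.976 over the 56 cells, -0.968 over the 33 chow cells and -0.973 over the 23 low-sodium cells. The deepest cell had 106 times the reads of the shallowest, yet the highest number of reads per kilobase of any gene rose only 11.5 times, from 153 to 1748. Ubb, which encodes ubiquitin, had 74 reads in the shallowest and 381 in the deepest cell. Its median level was 566.0 CPM in the 28 cells with the fewest reads and 160.2 CPM in the 28 with the most. Of 8779 genes whose mean log2(CPM + 1) was 2 or higher, 236 (2.69%) had a rho with reads of -0.5 or lower, and 229 of them were above 0 in every cell. Their median exon length was 1272 bases, against 3499 over the 8779. The 43 genes with a rho of 0.5 or higher had a median exon length of 4091 bases. For the marker genes rho was -0.33 for Hsd11b2, -0.35 for Ddc and 0.01 for Slc17a6. The part of depth in the levels of short, abundant genes was not tested.

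**Figure D1:**
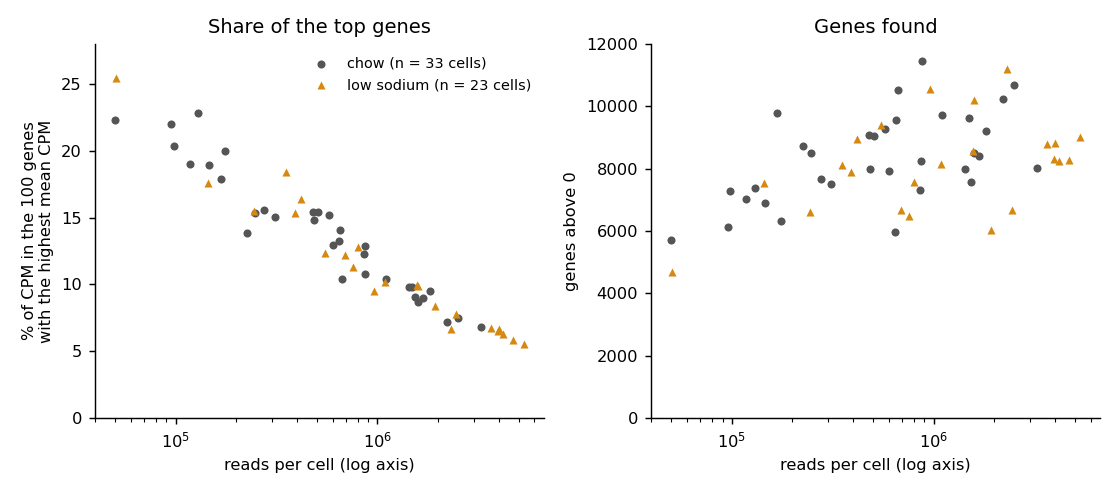
Each point is 1 of 56 HSD2 neurons, with reads in the listed genes on a log axis; left, the percent of CPM in the 100 genes with the highest mean CPM, right, the number of genes above 0. The share falls from 25.5% to 5.56% across the range of reads in cells of either diet, while genes above 0 rise loosely (rho 0.430).

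Levels of different genes were compared per length, as mean CPM per kilobase of exon, over the 11424 genes of 11875 that matched an annotated length. The 30 genes with the highest level per length ran from 909.8 to 516.9 CPM per kilobase and were all above 0 in all 56 cells, against a median of 10.7 CPM per kilobase over all genes. Of the 30, 9 are on the list of oxidative phosphorylation genes, which holds 71 of the 11875 genes in the table. Cox4i1, a subunit of cytochrome c oxidase, stood highest at 909.8 ± 526 CPM per kilobase, with Cox8a, a small subunit of the same enzyme, at 849 ± 565. Atp5b, the catalytic subunit of ATP synthase, reached 841 ± 433 CPM per kilobase. Ckb, the brain creatine kinase that buffers ATP, had 885 ± 528 CPM per kilobase. These SDs over cells exceed the gaps between neighbours in the order.

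The other genes of the 30 fell into a few roles. Calm2, 1 of the genes for calmodulin, was at 743 ± 415 CPM per kilobase, and Hsp90ab1, a chaperone, at 798 ± 395. Sncg, the gene for gamma-synuclein, a protein of axons and terminals, was at 725 ± 529 CPM per kilobase. Cytoskeleton was represented by Stmn3, Actb and Tubb3 at 526 to 709 CPM per kilobase. Sod1, which removes superoxide, stood at 721 ± 471 and Resp18, a protein of the regulated secretory pathway, at 695 ± 349 CPM per kilobase. Bex2 (817 ± 499 CPM per kilobase) and Maged1 (579 ± 271) lie on the X chromosome. Nme7, at 879 ± 450 CPM per kilobase, shares 575 exon bases with Atp1b1 on the opposite strand, and the library kit does not mark strand, so its reads cannot be told apart from those of Atp1b1, which is not analysed here. Cxx1c (844 ± 393) has near-identical copies and its level is uncertain. Cox4i1, Cox5a and Atpif1 also share 154 to 485 exon bases with a gene on the opposite strand. The 30 genes had a median rho with reads of -0.84 (-0.948 to -0.620), against 0.13 over all genes.

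A set of 1420 genes, 12.0% of the table, was above 0 in every cell and held 47.0% of all CPM. A further 2255 genes were found in 51 to 55 cells, and 19 in 5 or fewer. Of the genes found in every cell, Map1b had the highest lowest cell, at 10.28, 11.13 and 12.07 in its lowest, median and highest cell. Syt1, the calcium sensor of transmitter release, had 9.08, 10.16 and 11.08, and Snap25, a protein of the release machinery, had 8.83, 9.96 and 11.51. Syt11, another synaptotagmin, had the smallest SD of any gene in the table: 9.80 ± 0.35, from 8.94 to 10.47. Peg3, an imprinted zinc finger gene, stayed between 8.90 and 10.85, and Prkar1a, a regulatory subunit of protein kinase A, between 8.89 and 10.84.

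Which functions were found in every cell differed by gene list. Of 71 oxidative phosphorylation genes, 70 were above 0 in all 56 cells, against 12.0% of all genes. The corresponding counts were 36 of 41 cytoskeleton genes, 14 of 18 glycolysis genes, 30 of 39 ubiquitin and proteasome genes and 49 of 73 ribosomal protein genes. Of 48 genes of synaptic vesicle release, 24 were in every cell, among them Cplx1 (9.52 ± 0.73) and Rab3a (9.44 ± 0.70), which act in vesicle priming and fusion. Cell-surface lists were found less completely than these lists. Of 40 glutamate and GABA receptor genes, 8 were in every cell (20%, above the 12.0% of all genes). Below that 12.0% lay sodium and calcium channels (3 of 45 genes), potassium channels (2 of 49) and peptide and hormone receptors (1 of 37). The lists also differed in level: the median of their genes' mean log2(CPM + 1) was 7.83 for oxidative phosphorylation, 7.56 for vesicle release, 4.77 for sodium and calcium channels, 2.34 for potassium channels and 1.85 for peptide and hormone receptors. The part of level and depth in the counts was not tested.

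**Figure D2:**
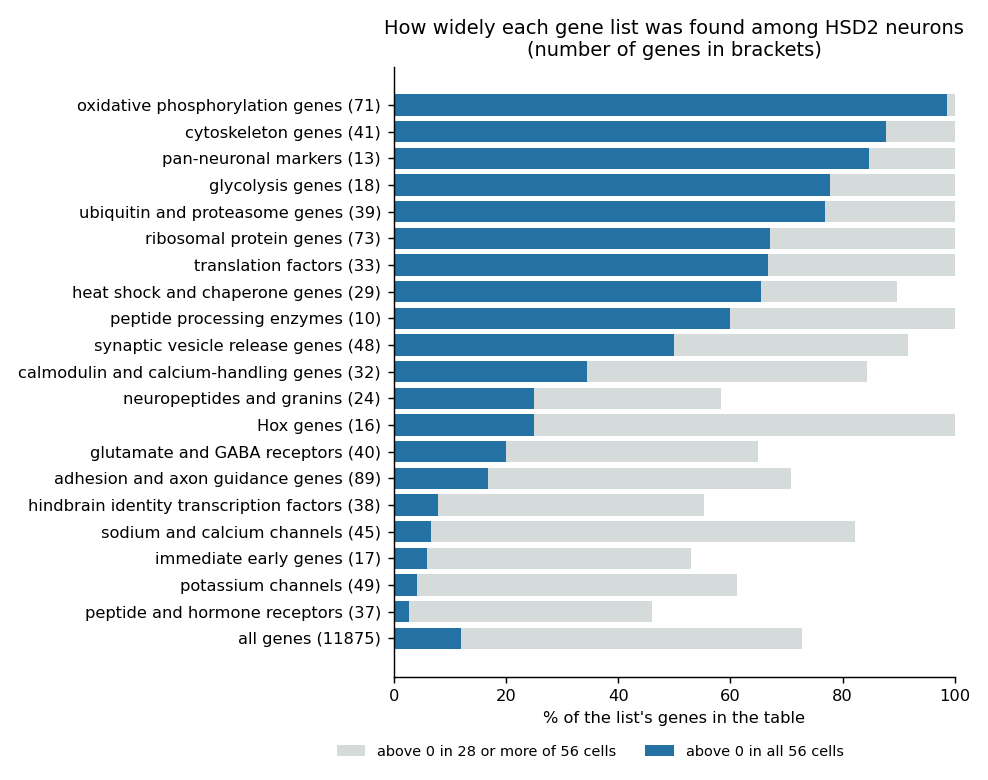
Bars give, for each gene list, the percent of its genes in the table that were above 0 in all 56 cells (blue) or in 28 or more (grey). Oxidative phosphorylation genes reach 98.6% in every cell, peptide and hormone receptors 2.70%, and all genes 12.0%.

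Many transcripts for the regulated secretory pathway, which packs peptides into dense granules, were found in every cell. Among granins and their relatives these included Scg2 (9.71 ± 0.71), Chgb (9.42 ± 0.80), Chga (8.68 ± 0.86) and Scg5 (8.49 ± 0.66). So were Cpe (9.52 ± 0.48), Pcsk2 (8.33 ± 0.70) and Pam (6.23, 8.45 and 10.04), enzymes that trim and amidate peptides, whereas Pcsk1, the other prohormone convertase, was at 0 in 17 cells. Of 24 neuropeptide and granin genes in the table, 6 were in every cell (25%, against 12.0% of all genes).

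Some receptor and channel transcripts were in every cell or nearly so. Ntrk2, the receptor of brain-derived neurotrophic factor, was the 1 peptide or hormone receptor of 37 found in every cell (1.49, 7.97 and 9.44). The share of that list in every cell was 2.70%, against 12.0% of all genes. Cnr1, the cannabinoid receptor, was in 55 cells (7.34 ± 1.49). Gria2 (8.24 ± 0.94) and Gria1 (7.66 ± 1.22), subunits of AMPA glutamate receptors, were in every cell, as were Gabrb2 (7.20 ± 1.16), a subunit of GABA-A receptors, and Glrb (7.32 ± 1.15), a glycine receptor subunit. Chrnb2, a nicotinic receptor subunit, was the 1 of 10 monoamine and acetylcholine receptor genes found in every cell (7.23 ± 1.09). That share of 10% was near the 12.0% of all genes. Chrnb2 has 1365 of 8380 exon bases in common with Adar, a coding gene on the opposite strand, so its level is uncertain. Sodium channel transcripts Scn9a (7.87 ± 1.04) and Scn2a1 (7.26 ± 1.02) and the channel partner Scn2b (7.95 ± 0.79) were in every cell. Among potassium channel genes, the auxiliary subunits Kcnip1 (7.25 ± 1.45) and Kcnab2 (6.52 ± 1.01) were in every cell.

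Transmitter genes other than the markers ranged from every cell to a few. Nos1, the neuronal nitric oxide synthase, was above 0 in 56 of 56 cells (3.04, 7.38 and 8.76), and shares 268 exon bases with a predicted gene on the opposite strand. The GABA-making enzyme genes Gad1 and Gad2 were found in 12 and 13 cells. Th, which starts catecholamine synthesis, was found in 5 cells, Chat, which makes acetylcholine, in 10, and Slc18a2, the vesicular monoamine transporter, in 34 (highest 6.97).

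Among transcription factors, the Hox genes were widely found. They are laid out in clusters and are switched on in order along the body axis, with low-numbered genes reaching furthest forward. All 16 Hox genes in the table were found in 28 or more cells, and a cell held 5 to 16 of them (median 13). Paralog group 5 had the highest level per length, with 472.2 summed CPM per kilobase against 94.2 for group 6, 75.1 for group 4, 57.9 for group 7, 43.6 for group 2, 40.8 for group 3 and 4.57 for group 8. These are sums over unequal numbers of genes: 3 in each of groups 3 to 6, 2 in group 2, and 1 each in groups 7 and 8. Hoxa5 (7.11, 8.75 and 10.20) and Hoxb5 (6.51, 8.47 and 10.45) were in every cell, as were Hoxb6 (6.97 ± 1.08) and Hoxc4 (6.86 ± 0.68), and Hoxb7 was in 42 cells. Hoxb5 shares 100 exon bases with an antisense transcript. Of 38 listed hindbrain factors, 3 (7.89%) were in every cell, against 12.0% of all genes, and 21 (55.3%) were in 28 or more cells, against 72.8%. Zfhx3 (7.93 ± 1.06) and Peg3 were among those in every cell.

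Variation was measured for each gene as its excess SD: the SD over cells of log2(CPM + 1) minus the median SD of the genes nearest in mean. It was computed for the 8779 genes with a mean of at least 2. Of these, 22 (0.251%) had an excess of at least 1 and 337 (3.84%) of at least 0.5. The 30 genes with the highest excess, leaving out predicted models, ran from 2.07 to 0.93, and 28 of them were at 0 in at least 1 cell. Of the markers, Agtr1a (0.50), Ddc (0.35), Hsd11b2 (0.33) and Slc17a6 (0.12) lay above their neighbours and Nr3c2 (-0.11) below. Highest stood Fos (2.07), Dbh (1.73), Meg3 (1.70), Cartpt (1.62), Kcnq1 (1.46), Snhg11 (1.36), Rgs4 (1.30), Apoe (1.28), Ucp2 (1.27) and Gal (1.26). They included early response genes, noncoding RNAs, peptide and transmitter genes and genes of glia. Of the 30, Jun, Meg3, Malat1, Nnat, Kcnq1, Ucp2, Skiv2l2, Ctsa and Tmem176b share 50 or more exon bases with a gene on the opposite strand.

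**Figure D3:**
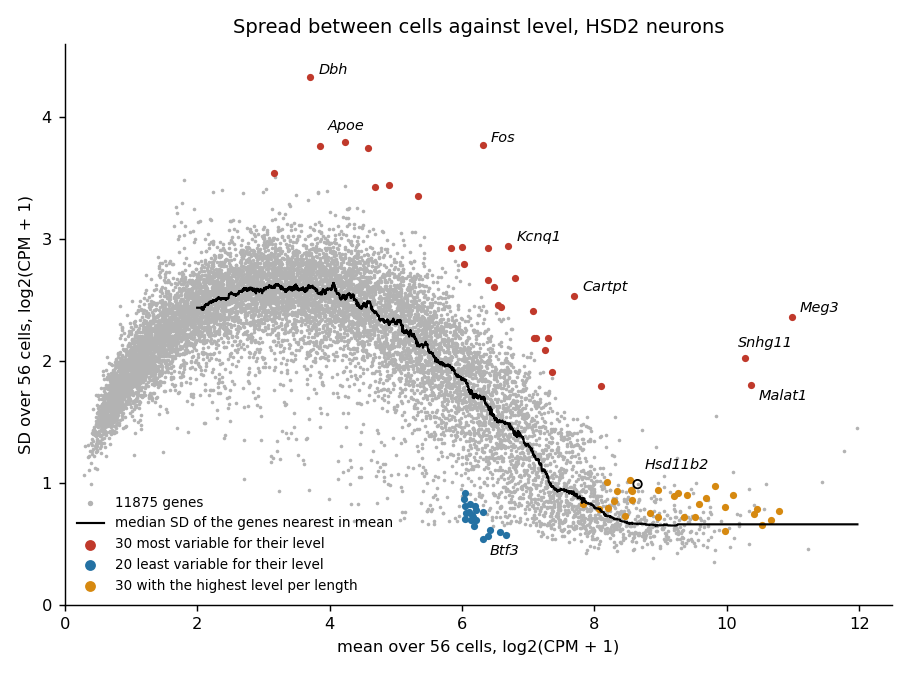
Each grey point is a gene, with its mean and SD of log2(CPM + 1) over 56 cells, and the line is the median SD of the genes nearest in mean. The 30 most variable genes (red) lie above the line, Fos and Dbh furthest, and the 20 least variable (blue) lie below it at means of 6.03 to 6.66. Orange points are the 30 genes highest per length, and the circle is Hsd11b2 (8.65 ± 0.99).

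Fos, an immediate early gene that encodes a subunit of the AP-1 transcription factor, was the most variable gene for its level. It was at 0 in 12 cells, at 100 to 1000 CPM in 29 and above 1000 CPM in 7, with a highest level of 11.51 and a median of 7.51. Jun, its partner in AP-1, was at 0 in 3 cells (median 7.64, highest 10.60), and Dusp1, a phosphatase that switches off MAP kinases, at 0 in 13 (median 6.50, highest 9.72). Several early response genes moved with Fos. Egr1, Jun and Fosb are named as the 3 genes with the highest rho to Fos, so their values are high by choice. The median rho over the 435 pairs of the 30 variable genes, which include neither Egr1 nor Fosb, was 0.04. Over the 56 cells the rho with Fos was 0.78 for Egr1, 0.76 for Jun, 0.71 for Fosb and 0.64 for Dusp1. With the rank of reads removed from both, the values were 0.78, 0.75, 0.71 and 0.64. Within the 33 chow cells they were 0.85, 0.78, 0.81 and 0.69, and within the 23 low-sodium cells 0.57, 0.76, 0.55 and 0.53. Junb was in every cell at 8.73 ± 0.59, from 7.34 to 9.78, and its rho with Fos was 0.25 (0.45 within chow and -0.12 within low-sodium cells). Other early response genes lay between: Btg2 had 0.56 (0.67 and 0.31), Nr4a1 0.55 (0.76 and 0.03) and Ier2 0.42 (0.47 and 0.27). Junb shares 173 exon bases with Prdx2 on the opposite strand. Of 17 immediate early genes in the table, Junb was the 1 found in every cell (5.88%, against 12.0% of all genes). Of the 11 with a mean of at least 2, 5 had an excess of 0.5 or more, against 3.84% of all genes with such a mean. The level of Fos had a rho of 0.57 with the mean of the astrocyte markers and of 0.30 with that of the oligodendrocyte markers. The part of other cells' RNA in these levels was not tested. In the 25 cells left without the glial markers, Fos was still among the 30 most variable genes. There Meg3, Snhg11 and Cartpt had the highest excess, and Dusp1 dropped out of the 30.

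Meg3, Snhg11 and Malat1 varied together. Meg3, an imprinted long noncoding RNA retained in the nucleus, had a median of 11.61 and a highest level of 13.38, stood above 1000 CPM in 46 of 56 cells, and was at 0 in 1. Snhg11 ran from 2.93 to 12.41 (median 10.80) and Malat1 from 3.58 to 12.87 (median 10.53). Where Meg3 was at 0, Snhg11 was at 4.27 and Malat1 at 4.49, in a cell with 856630 reads and 7311 genes. In the cell with the next lowest Meg3 (5.06), Snhg11 was at 2.93 and Malat1 at 7.57, with 1437982 reads. In the 2 cells after it (Meg3 at 5.90 and 7.08), Snhg11 was at 5.24 and 3.99 and Malat1 at 6.98 and 6.50. The cell after these (Meg3 at 7.48) had more of both, with Snhg11 at 9.77 and Malat1 at 9.32. Over all 56 cells rho was 0.95 between Meg3 and Snhg11, 0.81 between Meg3 and Malat1 and 0.81 between Snhg11 and Malat1, and with the rank of reads removed 0.94, 0.81 and 0.80. It was 0.68 between Meg3 and Miat, another nuclear noncoding RNA. Rian, from the same imprinted cluster as Meg3, had a rho of 0.48 with Meg3 and Mirg, a noncoding RNA of that cluster, 0.22, and Peg3, imprinted but coding, 0.30. With the rank of reads removed, rho with Meg3 was 0.75 for Miat, 0.61 for Rian, 0.31 for Mirg and 0.25 for Peg3. Ndn, an imprinted coding gene, was above 100 CPM in 55 cells and at 0 in 1 (median 10.13), and had a rho of 0.23 with Meg3, which was -0.11 with the rank of reads removed.

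Kcnq1, listed as the potassium channel gene, moved with these RNAs. It was at 0 in 6 cells (median 7.70, highest 10.36), and its rho was 0.64 with Snhg11 and 0.63 with Meg3. The genes most like it over the 56 cells were Zfp950 (0.77), Pnisr (0.72) and Dusp11 (0.71). Kcnq1 shares 121 exon bases with Kcnq1ot1, a noncoding RNA read from the opposite strand, so without strand the reads of both cannot be told apart there, and its level as channel mRNA is uncertain.

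Peptide and transmitter genes also differed from cell to cell. Dbh, which turns dopamine into noradrenaline, was found in 26 of 56 cells (46.4%, exact 95% interval 33.0% to 60.3%, counting error only). It was at 0 in 30 cells, at 100 to 1000 CPM in 14 and above 1000 CPM in 6. Between these lay 1 cell above 0 and at or below 10 CPM and 5 cells at 10 to 100 CPM. Of the 26 cells with Dbh, 2 also had Th, and rho between these genes was -0.04. Gal, the peptide galanin, was found in 38 cells (median 5.36, highest 11.97). Of the 26 cells with Dbh, 20 also had Gal, as did 18 of the 30 without it. Cartpt, the precursor of the CART peptide, was at 0 in 3 cells (median 8.17, highest 10.96), and its rho with Dbh was 0.13 and with Gal 0.16. The genes most like Cartpt were Cox5b (0.74), Ngfrap1 (0.73) and Cox6a1 (0.73), whose levels fell with reads, as did that of Cartpt (rho with reads -0.64). With the rank of reads removed those values were 0.48, 0.45 and 0.44. Calb1, the calcium buffer calbindin, ran opposite to Dbh: it was in 55 cells (median 8.56, highest 10.20), with a rho of -0.45 to Dbh, -0.39 within chow and -0.41 within low-sodium cells. Its most negative partner among the 30 was Ucp2, an inner-membrane carrier of mitochondria (-0.54). The genes most like Dbh were Tm4sf1 (0.51), Sorcs1 (0.44) and H2-D1, a class I MHC gene with close relatives (0.41).

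**Figure D4:**
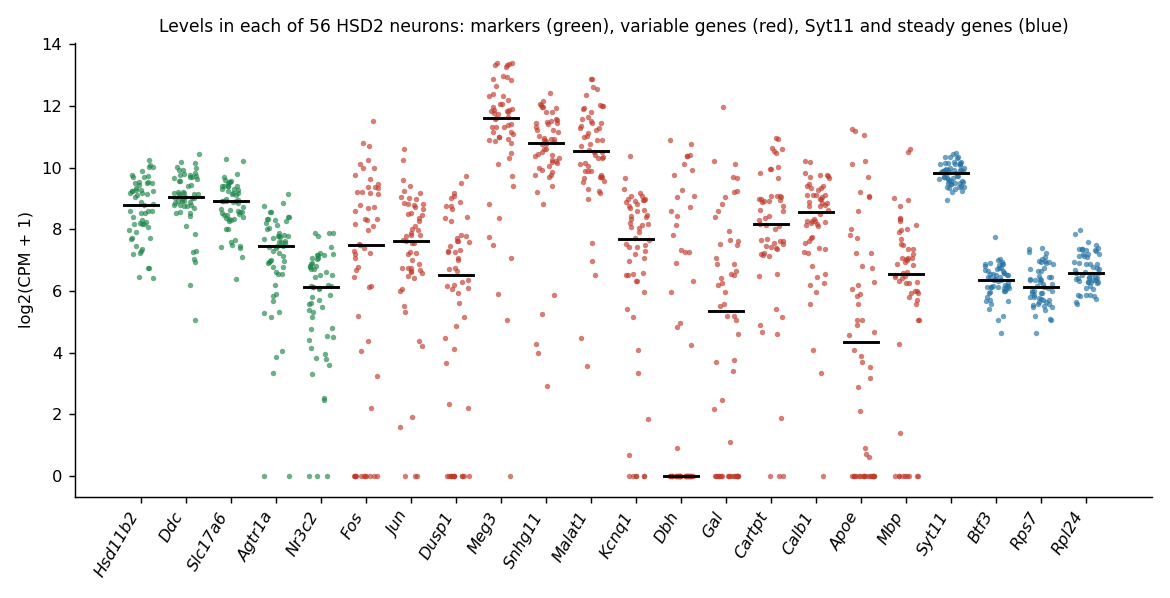
Each point is 1 of 56 cells, in log2(CPM + 1), and each bar is the median of a gene. Syt11 and the steady genes (blue) form compact clouds, the markers (green) spread more widely, with cells at 0 for Agtr1a and Nr3c2, and Dbh, Gal, Fos and Apoe (red) spread from 0 to above 10, with 30, 18, 12 and 18 cells at 0.

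Genes known mainly from glia were also among the 30. Apoe, a lipid carrier made mainly by astrocytes in the brain, was at 0 in 18 cells and above 1000 CPM in 5 (median 4.33, highest 11.25). Its nearest genes were Slc1a3, an astrocyte glutamate transporter (0.77), Sparc, a matrix protein (0.72), and Mlc1, an astrocyte membrane protein (0.72). Within chow cells these values were 0.87, 0.88 and 0.79, and within low-sodium cells 0.51, 0.46 and 0.62. The rho of Apoe with the mean of the astrocyte markers, of which Slc1a3 is 1, was 0.64. Gatm, an enzyme of creatine synthesis, was found in 29 cells and had a rho of 0.50 with Apoe (0.64 within chow and 0.23 within low-sodium cells). Mbp, a myelin protein, was in 47 cells (median 6.55, highest 10.59), with a rho of 0.63 to the mean of the oligodendrocyte markers, of which it is 1, and of 0.02 to Apoe. Leaving out the 15 cells that met the limit on the rarer glial markers kept 20 of the 30 variable genes among the first 30. Apoe, Gatm, Mbp and Ndrg2 were among the 10 that dropped out, as was Dusp1, and Meg3, Fos and Dbh then had the highest excess. Leaving out the 31 cells with at least 3 of all listed markers kept 16 of the 30, and Dusp1, Gal and Calb1 were among those that dropped out, and Meg3, Snhg11 and Cartpt then had the highest excess. Whether these transcripts came from the neuron or from other cells was not tested.

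Other variable genes act in signalling, adhesion, synapses and metabolism. Rgs4, which shortens G-protein signals, was at 0 in 8 cells (median 7.59, highest 9.64), and its nearest gene was Klhl24 (0.52). Cdh13, a cadherin, was found in 41 cells (median 5.93, highest 9.27), and Oprl1, the nociceptin receptor, in 51 (median 7.49, highest 9.29). Nnat, an imprinted gene, was found in 51 cells (median 7.21, highest 11.14). Synpr, a synaptic vesicle protein, was found in 49 cells (median 6.96) and Nptx1, a pentraxin of synapses, in 54 (median 7.85). Idh2, a mitochondrial enzyme, was found in 53 cells (median 7.47), and Cd24a, a surface glycoprotein, in 53 (median 7.62).

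**Figure D5:**
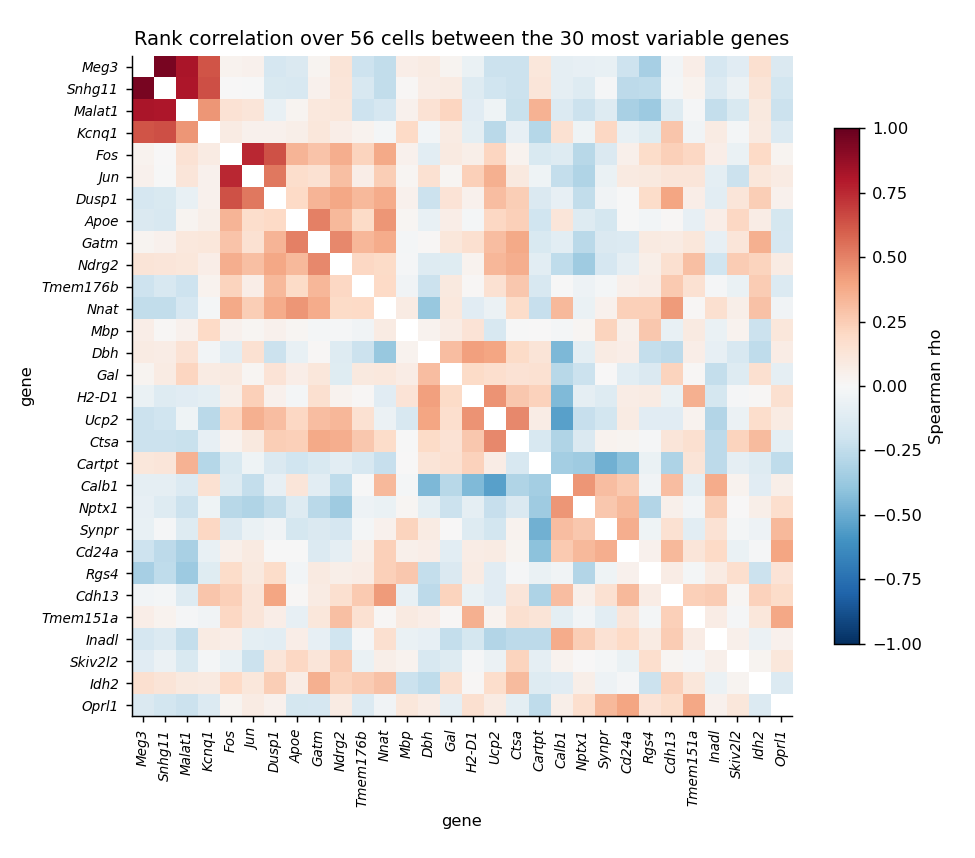
Colours give the Spearman rho over 56 cells between the 30 most variable genes; the diagonal is blank. The block at the upper left holds Meg3, Snhg11, Malat1 and Kcnq1 (0.44 to 0.95), and the next Fos, Jun and Dusp1 (0.53 to 0.76). Over all 435 pairs the median is 0.04. Outside these blocks some pairs also lie far from it, such as Ucp2 with Calb1 (-0.54) and Apoe with Gatm (0.50).

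At the other end, 20 genes with a mean of at least 6 had the lowest excess SD. All 20 were above 0 in every cell, with means of 6.03 to 6.66 and SDs of 0.54 to 0.92. Btf3, a factor that binds nascent proteins at the ribosome, was lowest (4.65, 6.36 and 7.74; excess -1.16). Atp5l, a subunit of ATP synthase, had an excess of -1.14 and Rps7, a ribosomal protein, of -1.08 (4.63, 6.14 and 7.40). Ribosomal proteins by name made up 9 of the 20, and the 73 such genes in the table had a median excess of -0.95. These genes have many processed copies in the genome, and their levels are uncertain. Btf3, Atp5l, Rpl10a, Znhit1, Fam150b, Pdap1 and Morf4l1 share 50 or more exon bases with a gene on the other strand. The means lie close to the limit of 6, above which the median SD of neighbours declines with level (1.49 to 1.85 around these genes), and the steady genes were short, with a median of 1057 exon bases. Morf4l1 (6.39 ± 0.56), a chromatin protein, and Pdcd5 (6.05 ± 0.92) were among the others. The 30 variable genes had SDs of 1.79 to 4.33.

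Promoters of the variable genes were read from RefSeq windows on GRCm38.p6, which run from 250 bases before to 50 after a gene's start. Of the 30 variable genes, 22 matched, with 33 windows. Over all 32851 RefSeq windows, 33.5% were CpG-rich, 2.87% held TATAAA and 1.79% held TGACGTCA under the rules given next. A CpG-rich window (observed over expected CG of at least 0.6 and GC of at least 50%) was found in 39.4% of the 33 windows of the variable genes, against 66.7% of the 11501 windows of genes in the table, 69.9% for genes in every cell and 70.8% for the steady genes. It was 50.0% for the genes with an excess of at least 1 and 59.2% (360 windows) for those with at least 0.5. Counted by gene, 13 of the 22 variable genes (59.1%) had a CpG-rich window, against 75.5% of genes in the table and 68.4% of the steady genes. TATAAA, the TATA box letters, was found on the gene's strand within the 60 bases before the start in 4 of the 33 windows (12.1%), against 1.30% for genes in the table and 2.78% for the genes with an excess of at least 0.5. It was found in 0 of 24 windows of the steady genes and in 11.5% of those of the genes highest per length. TGACGTCA, the letters of the full cAMP response element, which reads the same on either strand, was found anywhere in 3 of the 33 windows (9.09%), against 3.21%. The windows are few, and a match is a description of letters. Of the variable genes, Fos, Meg3, Rgs4 and H2-D1 had TATAAA, and Meg3, Cartpt and Dusp1 had TGACGTCA. The 250 bases before the start are shown for Fos and Dusp1, of the early response set, and for Meg3 and Cartpt, in which these letters fall, read 5′ to 3′ along the gene, with TATAAA and TGACGTCA in capitals.
Fos, chr12:85473640-85473889, plus strand: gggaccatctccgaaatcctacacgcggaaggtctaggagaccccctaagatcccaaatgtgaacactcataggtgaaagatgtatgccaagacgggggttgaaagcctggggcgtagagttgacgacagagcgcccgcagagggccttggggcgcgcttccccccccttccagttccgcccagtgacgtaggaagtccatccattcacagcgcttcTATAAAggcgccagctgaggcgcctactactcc
Dusp1, chr17:26508473-26508722, minus strand: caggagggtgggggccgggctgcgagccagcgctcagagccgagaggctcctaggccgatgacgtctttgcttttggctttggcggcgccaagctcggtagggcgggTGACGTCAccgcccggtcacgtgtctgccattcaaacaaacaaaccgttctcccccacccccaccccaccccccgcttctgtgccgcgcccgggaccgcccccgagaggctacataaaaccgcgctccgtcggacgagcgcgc
Meg3, chr12:109540746-109540995, plus strand: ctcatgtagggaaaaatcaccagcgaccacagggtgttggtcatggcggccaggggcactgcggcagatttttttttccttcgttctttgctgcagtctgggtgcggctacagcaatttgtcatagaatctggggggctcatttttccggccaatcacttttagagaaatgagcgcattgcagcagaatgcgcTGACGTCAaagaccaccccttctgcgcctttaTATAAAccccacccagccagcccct
Cartpt, chr13:99900684-99900933, minus strand: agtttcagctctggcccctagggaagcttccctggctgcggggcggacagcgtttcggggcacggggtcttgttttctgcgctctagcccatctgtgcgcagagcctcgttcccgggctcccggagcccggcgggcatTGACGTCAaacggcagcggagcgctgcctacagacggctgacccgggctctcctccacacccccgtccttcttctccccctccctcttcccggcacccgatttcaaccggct
In the Fos sequence TATAAA starts 33 bases before the start and in Meg3 25 bases before it, with TGACGTCA 57 bases before the start in Meg3, 112 in Cartpt and 143 in Dusp1.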

How the data were processed

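Single HSD2 neurons of the mouse NTS were measured by Smart-Seq2. Per the submitters' processing notes, featureCounts 1.4.6, SAMtools 0.1.19, HISAT2 2.0.5, bcl2fastq and Picard 2.5.0 took part, on mm10 or GRCm38. Not given in the sources used here are their settings and roles, the annotation, the strand setting, what was done with duplicate reads, and the scaling total. Each deposited value is the log2(CPM + 1) of 1 gene in 1 cell, as the authors computed it. Of 12015 lines, 121 that share 60 names and 19 named by numbers stayed in cell totals only, which left 11875 genes. CPM were computed by undoing the log2. The smallest spacing between a cell's CPM values was taken as 1 read: in each cell 100% of values up to 20 reads were whole within 0.1 read. Reads per cell and the CPM of a read are given in the report, and intervals cover counting error only. Lengths are summed exons of GENCODE M21. The members, gene lists and naming rule were chosen with earlier results of these data known. Named genes are the 5 markers, the 30 highest per length, the 30 most and 20 least variable genes without predicted models (most names that are sequence records were left out with them, beyond the rule as first written), in each list the 6 highest by mean and the most variable 1, up to 4 members of other cell types' lists by number of cells, the 3 genes with the highest rho to each of the first 10 variable genes, and the 15 genes with the highest lowest cell. Miat, Rian, Mirg, Nr4a1, Ier2 and the cells with the lowest Meg3 were chosen after their values were seen. Alternatives included all 65 cells, thinning to 50000 reads, each diet alone, other filters and pseudocounts, and leaving out cells with glial markers. The calculation of the excess SD was run on simulated reads. There all genes but a chosen set had the same spread, and levels did not fall with depth, unlike in these cells. That run checks the calculation only and not the order of the real genes. Python 3.11.15, numpy 2.4.6, pandas 2.3.3 and scipy 1.17.1 were used.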

Additional observations from a re-analysis of the deposited data

How the results depend on the processing

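Thinning every cell to 50000 reads left 771 genes above 0 in every cell and a median number of genes above 0 per cell of 6635.5. The number of genes with an excess SD of at least 1 was 46 in the 25 cells without glial markers, 40 in chow cells alone, 55 in low-sodium cells alone, 34 in the 28 cells with the fewest reads, 41 in the 28 with the most and 8 with a pseudocount of 10 CPM. Of the 30 most variable genes, the first 30 kept 16 without glial-marker cells, 18 after thinning, 19 in chow cells, 14 in low-sodium cells, 18 in the cells with the fewest reads and 7 when ranked by squared CV. Fos, Meg3, Kcnq1 and Snhg11 were kept in 15 of 15 settings, which do not include the squared CV, where Meg3, Kcnq1 and Snhg11 dropped out. Of the 20 steady genes, 5 were kept over all 65 cells, 11 without glial-marker cells, 7 after thinning, 11 in low-sodium cells, 8 in the cells with the fewest reads and 9 in those with the most. Without division by length, 9 of the 30 genes highest per length were kept, since long genes then lead. The cause of the other changes was not tested; settings with 23 to 28 cells also rest on fewer cells. The settings by reads and by the rarer glial markers, the longest transcript and all settings for the steady genes were chosen after seeing the data. Depth limits what 0 means: 1 read was worth up to 16.1 CPM. No paired analysis was possible because the labels tie no cell to an animal, so the neuron numbers only name cells.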
